A study of Mus musculus with 6 samples.

Results

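Genes of autophagy and mitochondrial turnover were followed in the spleen of NOD mice, in which autoimmune diabetes arises without induction. The 10 genes were Ulk1, Becn1, Atg5, Atg7, Atg4a, Map1lc3b, Gabarapl2, Sqstm1, Bnip3l and Marchf5 (older symbol March5), and all 31 probe sets annotated to them were taken, of 45037 probe sets and 19324 genes measured. The genes were chosen by their log2 levels in the 3 groups on these same arrays, so the levels and differences given for the 10 genes are a description and carry no test. All mice were female and of the NOD strain. The untreated non-diabetic mice had not become diabetic and the untreated diabetic mice had. The TSA-treated mice received 500 µg/kg trichostatin A (TSA), an inhibitor of histone deacetylases, under the skin once a week from 18 to 24 weeks of age. Only treated mice that were protected from diabetes were used, and by the study's methods those that remained diabetic were left out. Treatment and selection by outcome can thus not be told apart. The labels give an age of 32 to 36 weeks for every group, whereas the study's methods give 24 to 28 weeks for the diabetic and 28 to 34 weeks for the TSA-treated mice. Age can therefore not be told apart from disease or treatment. Each group was 1 RNA pool, of 3 to 5 mice by the labels and 4 to 6 by the methods, hybridized on 2 arrays. The SD between 2 arrays and every p-value thus describe the labeling and hybridization of a pool and say nothing of the spread between mice.

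Autophagy encloses cytoplasm in a double membrane, the autophagosome, and delivers it to the lysosome. The ULK1 kinase and the Beclin 1 lipid kinase complex start the process, a ubiquitin-like conjugation system that includes ATG5 and ATG7 attaches proteins of the ATG8 family (LC3B, GABARAPL2) to the growing membrane, and cargo receptors such as p62, the product of Sqstm1, bind to them. Mitophagy is the removal of mitochondria by this route. In the spleen of the mouse, a site of red cell formation, maturing red cells clear their mitochondria with the help of the outer membrane receptor NIX, the product of Bnip3l.

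The arrays differed in the balance of 3′ and 5′ signal of 2 control transcripts. The β-actin control was brighter at its 3′ end than at its 5′ end by 2.05 to 2.42 on the log2 scale on both non-diabetic arrays and diabetic replicate 1, by 3.32 and 3.45 on diabetic replicate 2 and TSA-treated replicate 1, and by 5.61 on TSA-treated replicate 2. TSA-treated replicate 2 correlated less with its own duplicate (r = 0.9656 across probe sets, which are not independent replicates) than the duplicates of the non-diabetic pool did with each other (r = 0.9931), and diabetic replicate 2 was closer to TSA-treated replicate 1 (r = 0.9896) than to its own duplicate (r = 0.9726). The part of this gap in the levels below was not tested, and values without single arrays are given beside those differences from the non-diabetic pool that they moved most. Each level is a log2 value, and levels were compared between groups within a probe set only. In pooled spleen RNA, fewer cells of a type and less RNA per cell cannot be told apart.

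The brightest probe sets of Atg4a, Map1lc3b and Marchf5 separated the 3 groups on all 6 arrays, and the promoters of these genes are shown for that reason. The only other probe set that did so was the dimmest of Becn1. The sequences are the 250 bases before the annotated start, from RefSeq on build GRCm38.p6, and 8 of the 10 genes had a match in that table. Atg4a has a pair of annotated starts there, and Marchf5 a pair only a few bases apart, of which the first is shown. The arrays do not tell which was in use, and they do not measure binding at any of these sites. Capitals mark AGATAA or TGATAA, letters that GATA factors recognise, GGGCGG, the GC box, and CCAAT, on either strand, without overlap between motifs.
Atg4a (GRCm38.p6, chrX:140953595-140953844, + strand): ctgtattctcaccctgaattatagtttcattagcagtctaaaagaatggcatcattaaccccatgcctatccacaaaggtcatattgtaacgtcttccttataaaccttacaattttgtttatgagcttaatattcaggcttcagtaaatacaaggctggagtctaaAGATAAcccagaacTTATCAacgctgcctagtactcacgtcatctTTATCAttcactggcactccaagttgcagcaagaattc
Atg4a (GRCm38.p6, chrX:140956657-140956906, + strand): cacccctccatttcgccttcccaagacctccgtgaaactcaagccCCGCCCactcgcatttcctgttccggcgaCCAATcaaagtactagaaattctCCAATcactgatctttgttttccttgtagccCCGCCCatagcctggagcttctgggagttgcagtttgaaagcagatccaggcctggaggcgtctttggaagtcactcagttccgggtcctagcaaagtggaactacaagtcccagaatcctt
Map1lc3b (GRCm38.p6, chr8:121590188-121590437, + strand): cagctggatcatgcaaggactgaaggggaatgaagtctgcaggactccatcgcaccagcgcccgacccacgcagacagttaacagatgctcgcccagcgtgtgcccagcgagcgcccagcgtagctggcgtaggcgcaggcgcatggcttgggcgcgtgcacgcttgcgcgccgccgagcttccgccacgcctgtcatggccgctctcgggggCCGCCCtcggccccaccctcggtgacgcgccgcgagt
Marchf5 (GRCm38.p6, chr19:37207290-37207539, + strand): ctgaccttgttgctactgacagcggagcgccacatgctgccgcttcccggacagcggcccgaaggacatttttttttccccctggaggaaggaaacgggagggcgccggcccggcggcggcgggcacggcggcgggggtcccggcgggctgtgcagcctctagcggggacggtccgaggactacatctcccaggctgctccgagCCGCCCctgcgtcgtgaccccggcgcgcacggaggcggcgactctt
The upstream Atg4a start held 1 AGATAA and 2 TGATAA and neither a GC box nor CCAAT, whereas the downstream one held 2 GC boxes and 2 CCAAT. The Map1lc3b and Marchf5 windows each held 1 GC box and none of the other letters. Of all 32851 promoters in the table, 9.99% held AGATAA, 7.94% held TGATAA, 32.7% held a GC box and 33.8% held CCAAT in the same 250 bases. The windows of Map1lc3b and Marchf5 had 30 and 31 CpG dinucleotides, against 3 and 9 at the Atg4a starts and a median of 6 over all promoters. The motifs were chosen after the sequences were seen, and a match of letters is no more than a description.

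Atg4a, which encodes a cysteine protease that trims ATG8 proteins, was lowest in the non-diabetic pool, intermediate in the diabetic pool and highest in the TSA-treated pool. Its brighter probe set read 8.68 and 8.61 on the non-diabetic arrays, 9.43 and 9.79 on the diabetic arrays and 10.28 and 10.10 on the TSA-treated arrays. No group overlapped another, although the nearest diabetic and TSA-treated arrays (9.79 and 10.10) were closer to each other than the diabetic duplicates were. The difference in log2 level was 0.96 (SE 0.19) for diabetic minus non-diabetic, a 1.95-fold higher level, 1.54 for TSA-treated minus non-diabetic, a 2.92-fold higher level, and 0.58 for TSA-treated minus diabetic. The other Atg4a probe set was dim (mean log2 level of 3.13 to 3.32 in the 3 groups) and its arrays overlapped between all groups. The bright probe sets of Atg4a, Map1lc3b and Marchf5 stand in the list of regulated probe sets that the study drew up from these same arrays, so their order is not independent evidence. The study also measured this Atg4 gene by qRT-PCR in mice other than those on the arrays. It reported a higher level after TSA than in diabetic mice in spleen but not in pancreas, without a non-diabetic group.

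Map1lc3b encodes LC3B, the ATG8 protein most used to follow autophagosomes. Its brightest probe set read 10.77 and 10.68 in non-diabetic, 11.04 and 11.18 in diabetic and 11.63 and 11.60 in TSA-treated spleen. The groups were again apart on every array, in the same order as for Atg4a, with differences of 0.38 (diabetic minus non-diabetic) and 0.88 (TSA-treated minus non-diabetic) in log2 level. The other probe sets of the gene did not share this order. The next brightest lay between 9.06 and 9.36 on all 6 arrays, with group means of 9.25, 9.14 and 9.26. The third was between 8.45 and 8.88 on 5 arrays and at 5.15 on TSA-treated replicate 2. The fourth was dim, between 2.87 and 3.19. The direction for Map1lc3b therefore depended on the probe set, and the mean of its 4 probe sets differed by -0.17 between the TSA-treated and the non-diabetic pool, with the value of 5.15 included.

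Gabarapl2 encodes another ATG8 protein, with roles in autophagosome maturation and Golgi traffic. Its brighter probe set read 8.84 and 8.86 in non-diabetic and 9.16 and 9.27 in diabetic spleen, and 9.86 and 8.55 on the TSA-treated arrays. Both diabetic arrays were above both non-diabetic arrays, while the TSA-treated arrays lay on either side of all 4 others. The difference of 0.36 for TSA-treated minus non-diabetic became 1.02 without TSA-treated replicate 2 and -0.30 without replicate 1. The dimmer probe set read 5.65, 5.73, 5.64 and 6.12 in the untreated pools and 6.43 and 6.69 after TSA, above every untreated array.

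**Figure D1:**
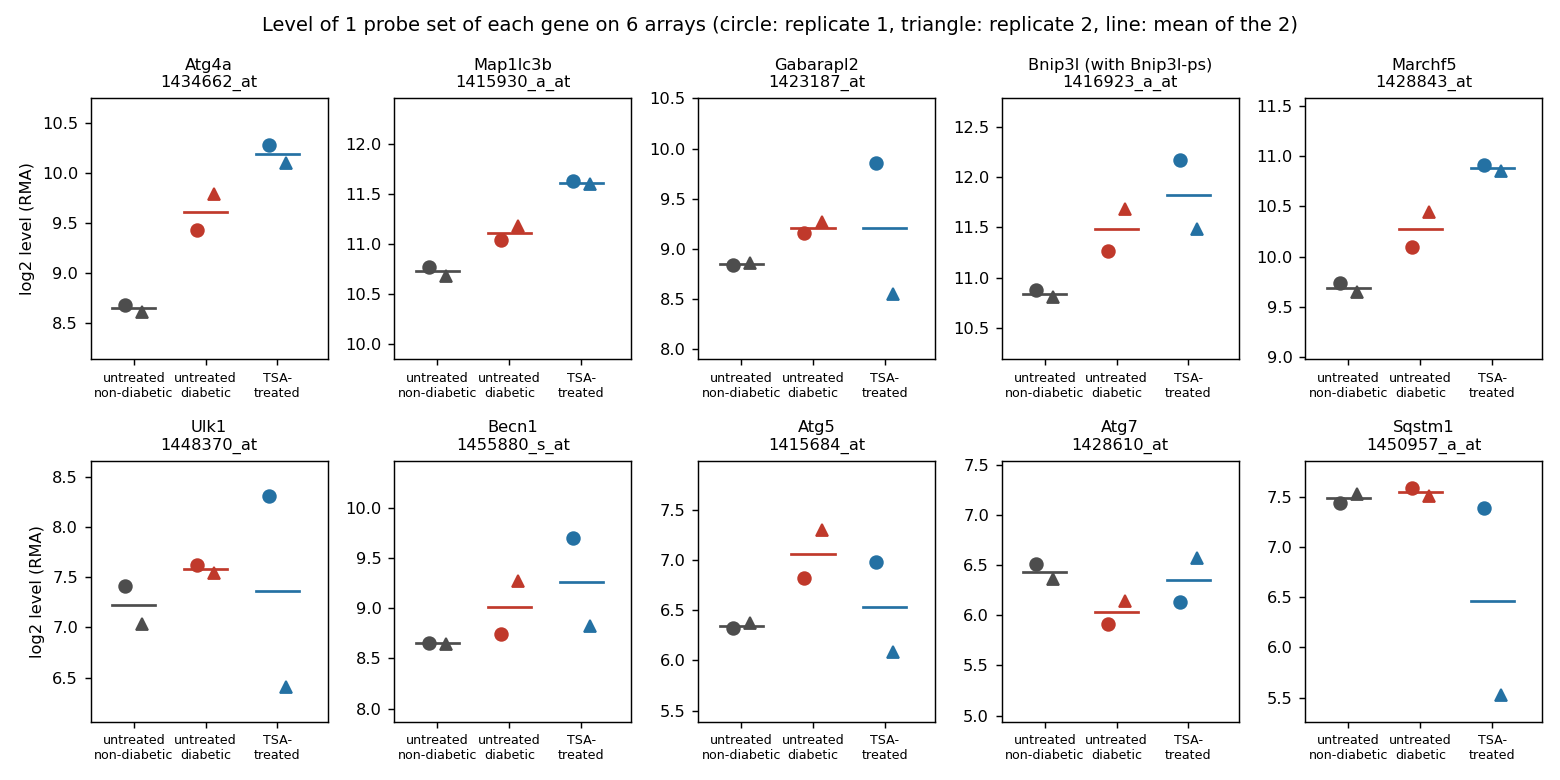
Level (log2, y axis) of 1 probe set of each of the 10 genes on the 6 arrays, by group (x axis), with circles for replicate 1, triangles for replicate 2 and lines for the mean of the 2, each panel spanning the same range of log2 units. Atg4a, Map1lc3b and Marchf5 step up from non-diabetic to diabetic to TSA-treated with close duplicates, whereas the TSA-treated duplicates of Ulk1, Sqstm1 and Gabarapl2 lie more than 1 log2 unit apart.

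Bnip3l encodes NIX, the mitochondrial outer membrane receptor that recruits ATG8 proteins during red cell maturation. All 3 of its probe sets are annotated to Bnip3l and to its pseudogene copy Bnip3l-ps together, so the share of each in the signal is uncertain. The brightest probe set read 10.88 and 10.81 in non-diabetic, 11.27 and 11.68 in diabetic and 12.17 and 11.48 in TSA-treated spleen. The dimmest of the 3 read 8.87 and 9.07, then 9.57 and 10.52, then 10.80 and 9.90. In both, the diabetic and the TSA-treated arrays were all above the non-diabetic arrays and overlapped each other. The differences from non-diabetic were 0.63 (diabetic) and 0.98 (TSA-treated) for the first and 1.08 and 1.38 for the second. For the first, the TSA-treated difference was 1.32 without TSA-treated replicate 2 and 0.64 without replicate 1, and the diabetic difference was 0.43 without diabetic replicate 2. The probe set between them in brightness had both diabetic arrays (11.56 and 11.67) above the non-diabetic ones (11.10 and 11.15), but its TSA-treated arrays read 12.20 and 10.39 and overlapped every other group.

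Marchf5 encodes MITOL, a ubiquitin ligase of the mitochondrial outer membrane that acts on fission and turnover of the organelle. Its brightest probe set read 9.74 and 9.65 in non-diabetic, 10.10 and 10.44 in diabetic and 10.91 and 10.85 in TSA-treated spleen. The groups did not overlap, and the TSA-treated level was 2.28-fold that of the non-diabetic pool (difference of 1.19). The next brightest read 7.39 and 7.37, then 7.98 and 8.78, then 9.57 and 7.26. On it the highest and the lowest of the 6 values were both TSA-treated arrays. The pair of dimmer probe sets had group means from 5.70 to 6.04 and from 3.78 to 4.41, with the TSA-treated mean the highest in each.

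Ulk1 encodes the kinase that starts autophagy. Its brighter probe set read 7.41 and 7.03 in non-diabetic, 7.62 and 7.54 in diabetic and 8.31 and 6.41 in TSA-treated spleen. TSA-treated replicate 2 minus replicate 1 was -1.89, and this pair enclosed all other arrays, so no level after TSA could be given beyond that range. Their difference from the non-diabetic mean was 1.09 without replicate 2 and -0.81 without replicate 1. The diabetic arrays were both above the non-diabetic arrays, by 0.36 in the mean, and the dimmer probe set had group means of 4.13, 4.07 and 4.19.

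Becn1 encodes Beclin 1, a subunit of the lipid kinase complex that nucleates the membrane. Its brightest probe set read 8.65 and 8.64 in non-diabetic, 8.74 and 9.27 in diabetic and 9.70 and 8.82 in TSA-treated spleen. The non-diabetic arrays were below all others, by 0.36 and 0.62 in the means, and the diabetic and TSA-treated arrays overlapped. The diabetic difference was 0.10 without diabetic replicate 2 and 0.63 without replicate 1, and the TSA-treated difference was 1.06 without TSA-treated replicate 2 and 0.18 without replicate 1, so neither size held. The next brightest showed the wider spread of 8.69 and 6.79 after TSA, around untreated values of 7.27 to 8.21. On the third brightest both TSA-treated arrays (5.41 and 5.62) were above all 4 untreated arrays (4.51 to 4.86). The dimmest probe set read 2.43 and 2.36 in non-diabetic, 2.60 and 2.60 in diabetic and 2.87 and 3.34 in TSA-treated spleen, all below 3.89, the median of all probe set means.

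Atg5 encodes the partner of ATG12 in the complex that guides lipidation of ATG8 proteins. Its probe sets pointed in opposite directions. The brightest read 6.32 and 6.37 in non-diabetic, 6.82 and 7.30 in diabetic and 6.98 and 6.08 in TSA-treated spleen, and was higher in the diabetic pool by 0.72, or by 0.48 without diabetic replicate 2. Its TSA-treated difference from non-diabetic, 0.19, was 0.64 without TSA-treated replicate 2 and -0.26 without replicate 1. The next read 7.16 and 7.23, then 7.25 and 5.65, then 5.83 and 5.01. The dimmest followed the same pattern as this one, at 5.72 and 5.95, then 5.96 and 4.65, then 4.46 and 4.30. On these 2 dimmer probe sets the non-diabetic arrays and diabetic replicate 1 were high and the other 3 arrays low, which divides the arrays in the same way as the β-actin 3′ to 5′ gap does, with the diabetic duplicates on different sides. The TSA-treated pool was lower than the non-diabetic pool by -1.77 and -1.46 in log2 level there, and the part of the gap in this difference was not tested.

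Atg7 encodes the enzyme that activates ATG12 and ATG8 proteins for conjugation. Its brightest probe set read 6.51 and 6.36 in non-diabetic, 5.91 and 6.14 in diabetic and 6.13 and 6.57 in TSA-treated spleen. It was the only representative probe set of the 10 with both diabetic arrays below both non-diabetic arrays, by -0.41 in the mean. The TSA-treated difference, -0.08, was -0.30 without TSA-treated replicate 2 and 0.13 without replicate 1. The other 3 probe sets of Atg7 differed by at most 0.28 between any 2 group means.

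Sqstm1 encodes p62, which binds ubiquitinated cargo and LC3 and is itself degraded by autophagy. Its brighter probe set read 7.44 and 7.53 in non-diabetic, 7.59 and 7.51 in diabetic and 7.39 and 5.53 in TSA-treated spleen. All arrays but 1 lay within 7.39 to 7.59, and the lower mean of the TSA-treated pool (difference of -1.03 from non-diabetic) rested on TSA-treated replicate 2, since it was -0.10 without that array and -1.96 without replicate 1.

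**Figure D2:**
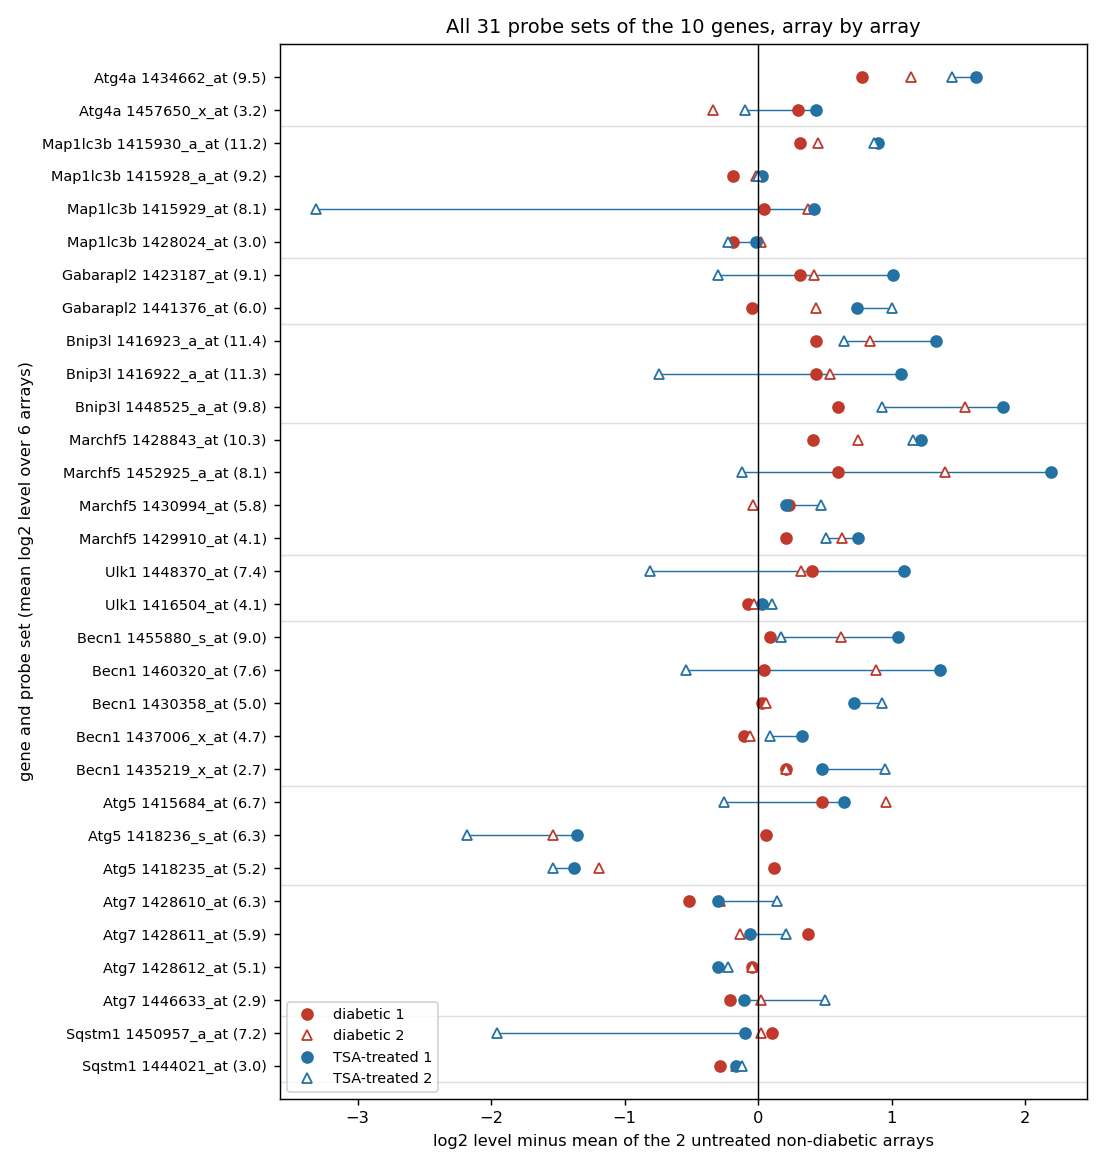
All 31 probe sets of the 10 genes, each array drawn as its log2 level minus the mean of the 2 non-diabetic arrays (x axis), ordered by brightness within a gene (mean log2 level over the 6 arrays in brackets) and a line joining the TSA-treated duplicates. Replicate 2 of the TSA-treated pool lies far left of replicate 1 for the third row of Map1lc3b, the second rows of Marchf5, Becn1 and Bnip3l, and the first rows of Ulk1 and Sqstm1, and probe sets of Atg5 lie on both sides of 0.

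With 1 representative probe set per gene, 9 of the 10 genes had a higher mean in the diabetic than in the non-diabetic pool and 1, Atg7, a lower one. The median difference over the 10 was 0.37, against 0.01 over all 45037 probe sets and 0.03 over the 22518 brighter than the median. For TSA-treated minus non-diabetic, 8 were higher and 2 (Atg7 and Sqstm1) lower, with a median of 0.49 against 0.05 over all probe sets. This median was 1.04 without TSA-treated replicate 2 and 0.16 without replicate 1, and without replicate 1 the signs of Ulk1, Atg5, Atg7 and Gabarapl2 turned. For TSA-treated minus diabetic, 6 were higher and 4 lower, with a median of 0.29, which was 0.65 without TSA-treated replicate 2, -0.09 without TSA-treated replicate 1 and 0.07 without diabetic replicate 1. The 10 representatives include the 3 probe sets from the study's list. Over all 31 probe sets the medians of the 3 comparisons were smaller, at 0.19, 0.20 and 0.12, and with each gene taken as the mean of its probe sets they were 0.17, 0.33 and 0.10. After a further quantile normalization the counts higher were 8, 9 and 7 of 10, with Sqstm1, Atg7 and Gabarapl2 the genes that turned. The comparisons share arrays, so their values are given side by side and were not correlated.

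Counted over all 31 probe sets, both diabetic arrays were above both non-diabetic arrays in 14 and below in 2, where 21.6% and 19.4% of all probe sets did so. Both TSA-treated arrays were above both non-diabetic arrays in 12 (26.3% of all probe sets) and below in 5 (21.5%). Against the diabetic arrays the TSA-treated arrays were above in 9 (16.2%) and below in 3 (11.4%). These counts follow from genes chosen for their levels and nothing is read from them. With 1 array left in a pool separation is easier by construction: without TSA-treated replicate 2, 20 probe sets were above and 8 below the non-diabetic arrays (38.8% and 40.2% of all probe sets), and without TSA-treated replicate 1, 15 were above and 13 below (51.1% and 34.4%).

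The TSA-treated duplicates lay further apart than those of the other pools. On 7 of the 31 probe sets, all of them among the 26 brighter than the median, TSA-treated replicate 2 was lower than replicate 1 by more than 1 log2 unit, and on none was it higher by that much. Over all probe sets brighter than the median, 12.9% were lower by more than 1 and 1.31% higher. The 7 belonged to Map1lc3b, Marchf5, Becn1, Ulk1, Sqstm1, Bnip3l and Gabarapl2, 1 probe set each, and in all but Ulk1 and Sqstm1 another probe set brighter than a log2 level of 5 kept its duplicates within 1 unit. In the diabetic pool 2 probe sets, both of Atg5, were lower in replicate 2 by more than 1, and in the non-diabetic pool none was.

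**Figure D3:**
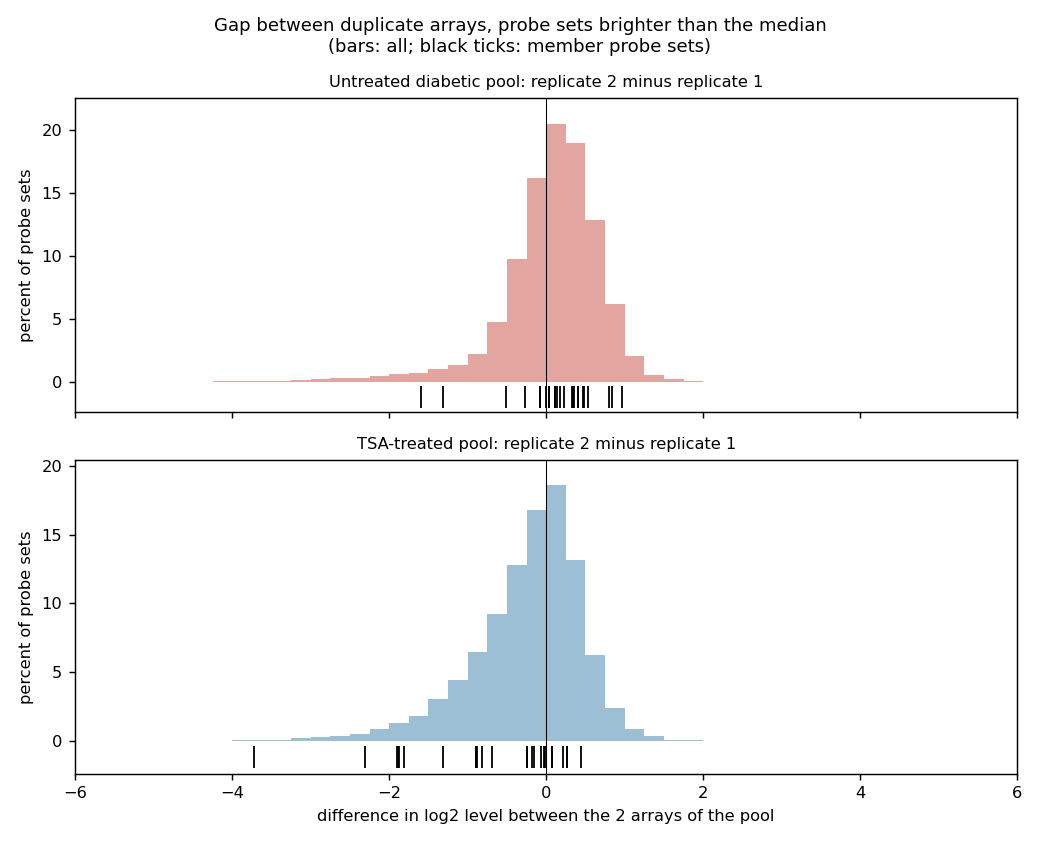
Distribution of the gap between duplicate arrays, as replicate 2 minus replicate 1 in log2 level (x axis), for all probe sets brighter than the median (bars, percent, y axis) and for the probe sets of the 10 genes among them (black ticks), in the diabetic and the TSA-treated pool. The TSA-treated distribution has a tail to the left in which 7 ticks lie below -1.

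Of 76 further genes of autophagy and mitochondrial turnover listed by role, 74 were measured with a probe set naming the gene alone. The list was drawn up with earlier results of these data known. Fundc2 in it also stands in the study's list of regulated probe sets from these same arrays and is not independent evidence. None of the 74 passed an adjusted p of 0.05 (limma, Benjamini-Hochberg over all 45037 probe sets) in any of the 3 comparisons, where 40 (0.0888%), 31 (0.0688%) and 12 (0.0266%) of all probe sets did. At an unadjusted p under 0.05 by limma, 6 of the 74 passed for diabetic minus non-diabetic (6.27% of all probe sets), 20 for TSA-treated minus non-diabetic (14.7%) and 5 for TSA-treated minus diabetic (4.27%). Bright probe sets passed more often, and 72 of the 74 are brighter than the median. Of all 22518 such probe sets, 1175 were higher and 1226 lower at this level for diabetic minus non-diabetic. For TSA-treated minus non-diabetic 2411 were higher and 3165 lower, and for TSA-treated minus diabetic 697 and 857. No excess is therefore read from the counts of the 74. With the methods' t-test 6, 13 and 1 of the 74 passed. The share of all probe sets was not computed for the t-test, so nothing is read from these last counts. The median differences were 0.09, 0.0 and -0.02. In simulated arrays, planted differences of 0.5 and 1 were not recovered with 2 arrays a group for diabetic minus non-diabetic (0 of 50 each). Differences of 2 were recovered in 27 of 50. A true difference of 1 or less would thus mostly be missed in this comparison. The simulated spread was pooled over all 3 groups. The other comparisons were not simulated, and no limit is given for probe sets with close duplicates.

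Among these genes the extremes were as follows. For diabetic minus non-diabetic, Prkaa1, a catalytic subunit of the energy sensor AMPK, differed by 0.76 (SE 0.43) and Atg14, a subunit of the Beclin 1 complex, by 0.75 (SE 0.52). At the other end Atg4c, a further ATG8 protease, differed by -1.06 (SE 0.37) and Wipi2, a lipid-binding protein of the early membrane, by -0.75 (SE 0.58). Without diabetic replicate 2 these 4 differences were 0.38, 0.28, -0.61 and -0.15. Atg4c, which thus had the other sign from Atg4a, read 4.97 and 5.39 in non-diabetic, 4.57 and 3.67 in diabetic and 3.57 and 4.19 in TSA-treated spleen. For TSA-treated minus non-diabetic, Prkaa1 differed by 1.27 (limma adjusted p = 0.262) and Foxo3, a transcription factor with autophagy genes among its targets, by 1.17 (limma adjusted p = 0.152). Gabarap, an ATG8 gene, differed by -1.83 (limma adjusted p = 0.501) and Wipi2 by -1.44 (limma adjusted p = 0.338). Gabarap read 10.56, 10.32, 10.66, 10.17 and 10.41 on 5 arrays and 6.81 on TSA-treated replicate 2, so its difference rested on that array and was -0.03 without it. Without the same array Wipi2 differed by -0.68, Prkaa1 by 1.84 and Foxo3 by 0.86, and without TSA-treated replicate 1 Prkaa1 differed by 0.70 and Wipi2 by -2.20. For TSA-treated minus diabetic, Foxo3 differed by 0.73 and Pink1, the kinase that marks damaged mitochondria, by 0.68, while Gabarap differed by -1.81 and Vamp8, a fusion protein, by -0.89 (limma adjusted p = 0.902 for each of these 4 genes). Vamp8 read 9.92 and 7.75 on the TSA-treated arrays, and without replicate 2 its sign turned, to a difference of 0.19, while Foxo3 differed by 0.43 and Pink1 by 0.62. Pink1 was at 7.73 to 7.98 on the 4 untreated arrays and at 8.52 and 8.63 after TSA.

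By role, the 15 further genes of mitochondrial turnover divided into 11 higher and 4 lower in the TSA-treated than in the non-diabetic pool (median 0.21). Of these, 3 higher ones, Fundc2 among them, and 1 lower one were at an unadjusted p under 0.05 by limma. That level was reached by 14.7% of all probe sets. Of the 22518 brighter than the median, 2411 were higher and 3165 lower at it, so nothing is read from such counts by role. The 5 cargo receptor genes had a median of 0.68 and divided into 3 higher and 2 lower, with 2 at that level. The 3 other ATG8 family genes had a median of -0.66 and 1 at that level, and the 9 genes of lysosome fusion a median of -0.29. Both rested on TSA-treated replicate 2, without which the medians were -0.03 and 0.11 and, of the ATG8 genes, Map1lc3a differed by -0.60, Gabarap by -0.03 and Gabarapl1 by 0.47. Without it the genes of mitochondrial turnover divided into 9 higher and 6 lower (median 0.23) and those of cargo receptors into 4 and 1 (median 0.76). Without TSA-treated replicate 1, which leaves replicate 2, the array with the β-actin gap of 5.61, to stand for the pool, 6 of the 74 genes passed the adjusted threshold against the non-diabetic pool (2 higher, 4 lower) and 3 against the diabetic pool (all lower), where 4.54% and 2.32% of all probe sets did.

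**Figure D4:**
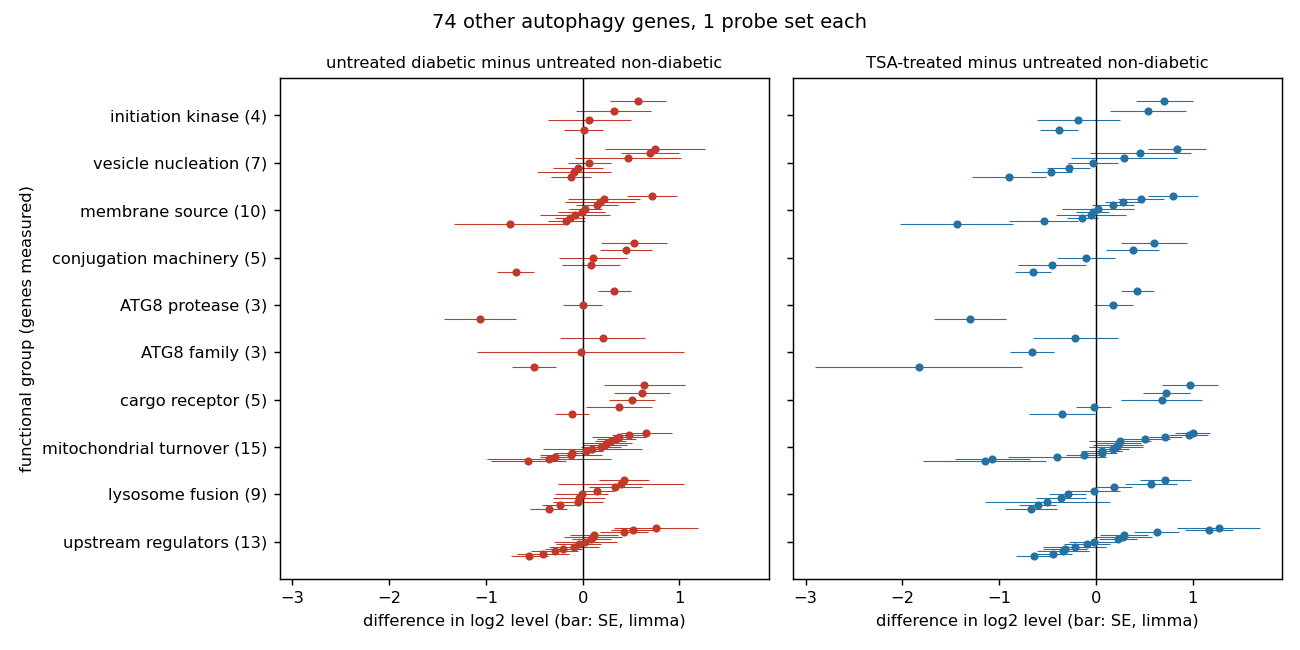
Differences in log2 level (x axis, bars are SE from the limma fit) of the 74 further autophagy genes by functional group (y axis, number measured in brackets), for diabetic (left) and TSA-treated (right) minus non-diabetic. The groups scatter on both sides of 0, from -1.06 to 0.76 on the left and from -1.83 to 1.27 on the right, and none of the genes passed the adjusted threshold.

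Most markers of red cell precursors had higher means in the diabetic and TSA-treated pools. Of 20 listed erythroid markers 16 were measured, of which 13 were higher in each of these pools than in the non-diabetic one and 3 (Alas2, Gata1 and Sptb) were not, with a median difference of 0.56 for diabetic and 0.75 for TSA-treated minus non-diabetic, and none passed the adjusted threshold. Among the 13, Hba-a1 read 2.81 to 3.64 on the 6 arrays, below 3.89, the median of all probe set means. The levels of the 16 markers, summed on the linear scale, were 25800 to 26400 in non-diabetic, 35600 to 39200 in diabetic and 37100 to 52100 in TSA-treated spleen. TSA-treated replicate 2, at 37100, thus lay within the diabetic range. Both TSA-treated arrays were above both diabetic arrays for 6 of the 16 markers and below for 1, Sptb (16.2% and 11.4% of all probe sets). Hemgn, an erythroid nuclear protein, read 10.84, 10.64, 11.51, 11.77, 12.18 and 11.98 on the 6 arrays in the order non-diabetic, diabetic, TSA-treated, the same order of arrays as Atg4a. Klf1, the erythroid transcription factor, read 9.83, 9.87, 10.56, 10.78, 11.24 and 10.35, with TSA-treated replicate 2 below replicate 1, as in Bnip3l. Alas2, the erythroid enzyme of heme synthesis, read 11.12, 11.09, 11.24, 10.96, 11.39 and 8.60, and Slc4a1, the anion exchanger of the red cell, 12.51, 12.53, 12.79, 12.60, 13.10 and 13.01. Several of the erythroid and proliferation markers, Hemgn among them, also stand in the study's list of regulated probe sets and are not independent evidence of a direction.

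Markers of other cells also differed between the pools. The 9 of 10 listed proliferation markers that were measured had median differences of 0.75 and 0.98 from non-diabetic, and summed levels of 11000 to 11200, 16100 to 19900 and 23300 to 23500 in non-diabetic, diabetic and TSA-treated spleen. The 7 of 8 measured B-cell markers summed to 7290 to 7350, 6530 to 6800 and 1900 to 4410, and the 6 of 8 T-cell markers to 1760 to 1930, 1400 to 1440 and 1130 to 1200. Cd3e, a subunit of the T-cell receptor complex, read 9.57 and 9.38, then 9.10 and 8.88, then 8.88 and 8.95. The 10 red pulp macrophage markers summed to 5980 to 6090, 7250 to 7650 and 6150 to 7480, and the 9 of 10 neutrophil markers to 21400 to 23300, 34600 to 35700 and 25000 to 27200. Such sums weigh the brightest markers most. Marker by marker, 5 macrophage markers were higher and 5 lower in diabetic than in non-diabetic spleen, and 6 and 4 in TSA-treated spleen. All 9 neutrophil markers were higher in diabetic spleen (median 0.55), but in TSA-treated spleen 3 were higher and 6 lower than in non-diabetic (median -0.55). The 11 of 13 measured markers of pancreatic acinar cells, which do not belong to spleen, were higher in both other pools than in the non-diabetic pool. They summed to 406 to 419, 32000 to 32900 and 5100 to 5600. The adjusted threshold of limma was passed by 10 and 9 of the 11, against 0.0888% and 0.0688% of all probe sets. Most of these genes also stand in the study's list of regulated probe sets from these same arrays, so their passing is not independent evidence. The part of cell makeup in the levels of the 10 genes was not tested.

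**Figure D5:**
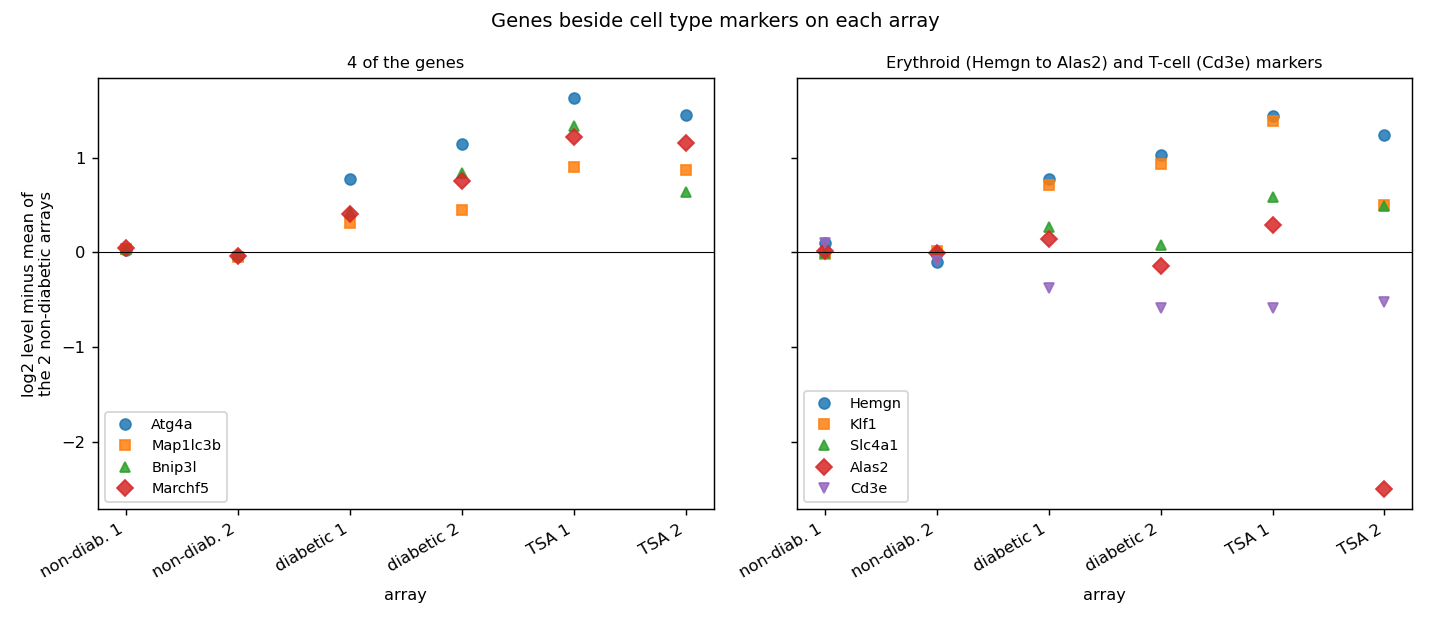
Log2 level minus the mean of the 2 non-diabetic arrays (y axis) on each of the 6 arrays (x axis) for Atg4a, Map1lc3b, Bnip3l and Marchf5 (left) and for 4 erythroid markers and the T-cell marker Cd3e (right). Atg4a and Hemgn step up together over the arrays, while Alas2, at a log2 level of 8.60, lies far below its non-diabetic level on TSA-treated replicate 2 alone and Cd3e lies below its non-diabetic level on all 4 diabetic and TSA-treated arrays.

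The genes whose levels over the 6 arrays were most like those of Atg4a, among 8650 probe sets that name 1 other gene and span at least 1 log2 unit, were Atad2 (Pearson r = 0.9981), Rb1 (0.9979), Mns1 (0.9975), Asf1b (0.9974) and Sgo2a (0.9974). Atad2 is a chromatin-associated ATPase, Rb1 the retinoblastoma protein, Asf1b a histone chaperone and Sgo2a a protector of centromeric cohesion. For Bnip3l they were Car1, a carbonic anhydrase of red cells (0.9997), the phosphatase gene Ppm1d (0.9995), the transporter gene Abcg2 (0.9979), the chromatin remodeling gene Smarce1 (0.9976) and the nuclear export gene Xpo7 (0.9976). For Map1lc3b they were Apol11b (0.9988), Nudt12 (0.9986), the heme synthesis gene Urod (0.9965), Serinc5 (0.9964) and Chac2 (0.9953). With 3 pools on 2 arrays each such values are common, and r was over 0.95 for 419, 288 and 312 probe sets, so the likeness is a description over arrays that share pools and signal quality. Within the 10 genes, the bright probe set of Atg4a had an r of 0.99 with the brightest of Marchf5, 0.97 with that of Map1lc3b, 0.93 with that of Bnip3l and 0.38 with that of Atg5. With the brightest of the remaining genes r was 0.75 (Becn1), 0.46 (Gabarapl2), 0.2 (Ulk1), -0.24 (Atg7) and -0.45 (Sqstm1). The dimmer probe sets of Atg5 had an r of -0.84 and -0.87, and those of Map1lc3b 0.06, -0.32 and -0.32.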

How the data were processed

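RNA from the spleens of female NOD mice, pooled into 1 sample for each of 3 groups, was hybridized to 6 Affymetrix arrays with 3′ probe sets. The authors deposited log2 values, made by quantile normalization and robust multi-array averaging (RMA); the genome build behind the array annotation is not given in the sources used here. Arrays report no depth, and their number limits the precision. Of 45101 probe sets, 64 controls were left out. Probe sets were named from GEO's platform annotation (34945 name 1 gene, 932 several, 9160 none). Differences and SEs came from limma 3.58.1 in R 4.3.3 (lmFit, eBayes, all 6 arrays), with Benjamini-Hochberg adjustment over 45037 probe sets and an adjusted p of 0.05. The steps were tested on simulated data. A gene with several probe sets was represented by the one in the study's list (Atg4a, Map1lc3b, Marchf5) or otherwise by the brightest naming it alone (for Bnip3l, the brightest of its shared ones). Of the further genes, those passing the threshold or otherwise the 2 highest and 2 lowest were named. The members and lists were chosen with earlier results of these data known. Alternatives were a replicate block, leaving out each array, fits of 2 groups, limma-trend, the methods' t-test, a brightness filter, median centring, repeated quantile normalization and means over probe sets. Columns of the authors' own comparisons were not used.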

Additional observations from a re-analysis of the deposited data

How the results depend on the processing

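The medians and counts were recomputed under 96 alternatives, of which 78 stayed within the spread between replicates or within 1.5 times the count. Of 300 recomputed differences of single genes, 246 stayed within the spread between replicates and 54 did not. Part of these stayed by construction. Leaving out an array of the group outside a comparison cannot change a difference of the 10 genes or their median. The brightness filter cannot either, since all 10 representatives passed it. Leaving out each array in turn gave a median difference of the 10 genes of 0.3526 to 0.5379 for diabetic minus non-diabetic, 0.1559 to 1.0358 for TSA-treated minus non-diabetic and -0.0898 to 0.6457 for TSA-treated minus diabetic. The further genes that passed the adjusted threshold numbered 0 to 0, 0 to 6 and 0 to 3 in these comparisons, and the highest counts came without TSA-treated replicate 1, where 4.54% and 2.32% of all probe sets passed and replicate 2 alone stands for the pool and is assumed to vary like the other groups. Probe sets of the 10 genes with every array above or below were also counted with arrays left out, an alternative chosen after seeing the data. For diabetic minus non-diabetic 15 to 20 were above and 3 to 8 below. The counts were 12 to 20 and 5 to 13 for TSA-treated minus non-diabetic, and 12 to 20 and 3 to 12 for TSA-treated minus diabetic. Separation is easier by construction with 1 array in a group, and under the same settings 32.0% to 41.5% and 30.2% to 38.8%, 35.4% to 51.1% and 28.7% to 40.2%, and 26.8% to 43.3% and 28.5% to 29.4% of all probe sets did so. Averaging all probe sets of a gene left 7, 6 and 6 of 10 genes higher in the 3 comparisons, with Atg5 and Sqstm1, Atg5 and Map1lc3b, and Map1lc3b and Gabarapl2 turning sign. With the replicate number as a block, 0 of the further genes passed in each comparison. Deviations of same-numbered arrays from their pool means correlated at -0.335 (non-diabetic with diabetic), -0.036 (non-diabetic with TSA-treated) and -0.105 (diabetic with TSA-treated). Arrays of the same number thus did not deviate in the same direction. The first value means that non-diabetic replicate 1 tended to deviate with diabetic replicate 2, and the reason was not tested. No outlier was sought, as each group has 2 arrays. The number of arrays limits every value.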
